A study of Macaca fascicularis with 64 samples.

Results

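The nuclear-coded subunits of the respiratory chain and the ATP synthase were followed through the 4 endocrine cell types of the cynomolgus monkey islet, α-, β-, δ- and PP-cells, in young and old animals. The members were all genes whose symbol starts with NDUFA, NDUFB, NDUFC, NDUFS, NDUFV, UQCR, COX4, COX5, COX6, COX7, COX8 or ATP5, together with SDHA to SDHD. Of the 21041 macaque genes counted, 61 met this rule, 27 of complex I, 8 assembly factors of complex I, 2 of complex II, 3 of complex III, 11 of complex IV and 10 of the ATP synthase. Of the same 21041 genes, 5046 are listed only by an Ensembl identifier, and a subunit listed in that way was not analysed here.

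Islets came from the tail of the pancreas of 16 non-diabetic monkeys, 8 young (aged 4 to 6 years) and 8 old (aged 18 to 21 years), each age group holding 4 females and 4 males. The labels name no treatment or transgene. Single cells were picked by mouth pipette after dissociation, staining with propidium iodide and removal of debris by sorting, and their mRNA was tagged with a cell barcode and a unique molecular identifier (UMI) that marks each captured transcript. Each monkey was collected on a day of its own, so that day and monkey cannot be told apart, and the 4 libraries of a monkey held all its cell types.

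The respiratory chain sits in the inner mitochondrial membrane. Complex I (NADH dehydrogenase) and complex II (succinate dehydrogenase) pass electrons through complex III to complex IV (cytochrome c oxidase), protons are pumped out on the way, and the ATP synthase uses their return to make ATP. Most subunits are coded in the nucleus and imported, while a small set, the core of complexes I, III and IV and part of the proton channel of the ATP synthase, is coded by mitochondrial DNA. In β-cells ATP made in this way closes potassium channels and so couples glucose to insulin release, which is why the pathway is followed in islets.

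A cell was typed by the highest of GCG, INS, SST and PPY. This gave 4503 α-cells, 1219 β-cells, 112 δ-cells and 74 PP-cells among 5908 cells with over 800 genes and over 10000 UMIs. For each monkey and type with 5 cells or more the UMIs of those cells were added up, which left 16 monkeys for α-cells, 16 for β-cells, 11 for δ-cells (7 young and 4 old) and 6 for PP-cells (2 young and 4 old). Levels are given as UMIs per 1000000 UMIs of the sum (CPM). A UMI counts a transcript once, whatever its length, so levels of different genes were not divided by length. The median depth per cell was 64894 UMIs in α-cells, 74425 in β-cells, 43776 in δ-cells and 45772.5 in PP-cells, and the sums held between 206257 and 27439498 UMIs. The types carried their markers: 6 of 8 α-cell, 7 of 8 β-cell, 6 of 6 δ-cell and 5 of 6 PP-cell markers were highest in their own type. Hormone RNA of other cells was present too, with a mean of 22849 CPM of GCG in β-cells and 7262 CPM of INS in α-cells. Summed markers of duct cells had medians between 66.5 and 124 CPM in the 4 types, and those of acinar, immune, stellate and endothelial cells medians between 0 and 10.04 CPM.

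Of the 61 members, 44 lay at 100 CPM or above in α-cells, with COX7C, NDUFB2 and COX8A the highest, while 11 lay between 10 and 100 and 6 under 10. Together they took 2.20% of the UMIs of α-cells. The most abundant over α- and β-cells were COX7C and COX8A, small subunits of complex IV, NDUFB2 and NDUFB4, accessory subunits in the membrane arm of complex I, and ATP5G2, a gene for the c subunit whose ring turns in the ATP synthase. COX7C had between 1225 and 1810 CPM in α-cells (median 1321, n = 16) and NDUFB2 between 915 and 1821 (median 1137). A typical cell showed most of the list, with a median of 49 members detected in an α-cell, 50 in a β-cell, 45 in a δ-cell and 46 in a PP-cell. After thinning to 10000 UMIs, which left out 45 cells with fewer UMIs of macaque genes, the medians were 40, 41, 36 and 37.

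The spread of the members between monkeys was described without comparing it with that of other genes. Over the 44 members at 100 CPM or above in α-cells the coefficient of variation between monkeys was between 7.31% and 26.1% (median 14.1%), and over 47 such members in β-cells between 8.89% and 36.6% (median 19.8%).

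Summed over all 61 members, α-cells had the highest level and the other 3 types lay lower. The sum was between 19753 and 26206 CPM in α-cells (median 21574), between 17544 and 24685 in β-cells (median 20433), between 15982 and 21998 in δ-cells (median 18816) and between 16112 and 21484 in PP-cells (median 18312). The ranges of the 4 types overlapped, yet within a monkey the order was regular. β-cells lay below α-cells in 15 of 16 monkeys, with a mean difference of -8.12% ± 6.76 (SD), and the exception was old male 3. δ-cells lay below α-cells in 11 of 11 monkeys (-13.2% ± 7.92) and PP-cells in 6 of 6 (-17.7% ± 5.79). δ-cells against β-cells gave -5.29% ± 7.30 (lower in 8 of 11), a mean within the spread between monkeys. Per spike-in UMI in place of CPM, the sum was higher in β-cells than in α-cells by 7.74% ± 24.1, in 9 of 16 monkeys. β-cells had more RNA per spike-in than α-cells (20.2 ± 4.10 against 17.4 ± 2.40 UMIs per spike-in UMI, n = 16 each), and δ-cells (11.3 ± 0.954) and PP-cells (13.02 ± 2.09) had less. The regular order of β- and α-cells was thus lost when scaled to spike-ins. No test was made of the sums, since the list was chosen with earlier results known.

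The 13 subunits coded by mitochondrial DNA went the other way. Their sum was between 17218 and 49623 CPM in α-cells (median 34398) and between 23326 and 73404 in β-cells (median 58544), and it was higher in β-cells in 16 of 16 monkeys, by 60.0% ± 22.9. It was also higher in δ-cells than in α-cells in 11 of 11 monkeys, by 29.7% ± 18.2, and in PP-cells in 4 of 6, by 12.8% ± 15.04. The number of mitochondrially encoded UMIs for each UMI of a nuclear-coded member, a ratio within 1 sum that no scaling can move, was 1.57 ± 0.423 in α-cells, 2.73 ± 0.767 in β-cells, 2.44 ± 0.680 in δ-cells and 2.04 ± 0.615 in PP-cells. Within monkeys the ratio was above that of α-cells in 16 of 16 monkeys for β-cells (by 75.1% ± 30.3), in 11 of 11 for δ-cells (by 49.4% ± 15.01) and in 6 of 6 for PP-cells (by 37.2% ± 16.8). With each cell required to hold at least 3 times more of its hormone than of the next, the ratio of β- to α-cells was 75.8% ± 31.6 higher, in 14 of 14 monkeys.

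**Figure D1:**
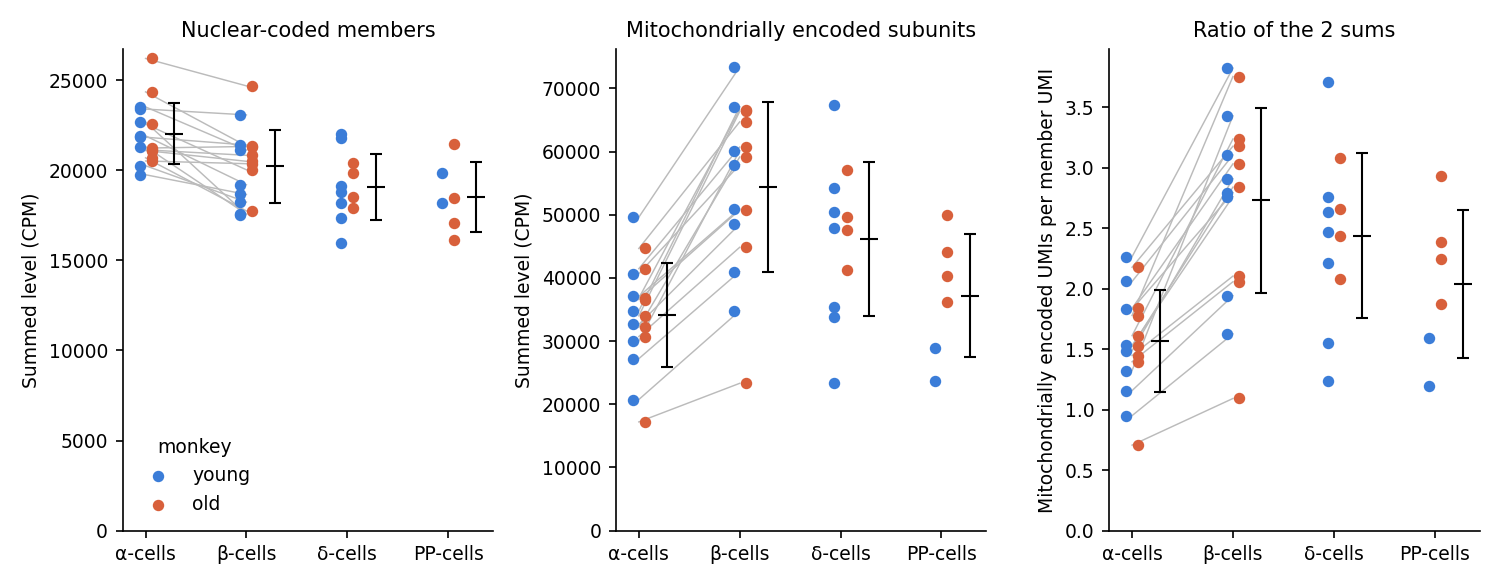
Summed level of the 61 nuclear-coded members (left, CPM), of the 13 mitochondrially encoded subunits (middle, CPM) and their ratio (right) in each cell type. A point is a monkey (blue young, red old), grey lines join the α- and β-cells of a monkey, and black bars give mean and SD. The nuclear-coded sum falls from α- to β-cells in 15 of 16 monkeys while the ratio rises in 16 of 16.

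In 2 monkeys some mitochondrially encoded genes were very low in α- and β-cells alike. COX2, the subunit of complex IV that receives electrons from cytochrome c, had 24.6 CPM in the α-cells of young male 1 and 457 in those of old male 1, against 5404 to 12360 in the other 14 monkeys. In β-cells the same monkeys had 31.4 and 599 CPM, against 10325 to 24313. COX3 (1771 and 1561 CPM in α-cells, against 4892 to 10174) and ND3 (85.7 and 73.2 CPM, against 588 to 5234) were low in the same monkeys. Their nuclear-coded sums in α-cells (21835 CPM in young male 1 and 24352 in old male 1) lay within the range of the other monkeys, and the cause of the low values was not tested. Without them the ratio was 76.9% ± 32.0 higher in β-cells than in α-cells, in 14 of 14 monkeys.

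For single genes, sums of the same monkey were compared by edgeR's quasi-likelihood test with the monkey as a block and Benjamini-Hochberg adjustment over all genes tested, at a threshold of 0.05. In this fit 60 of the 61 members passed the filter on low counts, the exception being COX8C, a testis isoform of complex IV. Fold changes come from this fit, which scales the sums by trimmed means (TMM). The median scaling factor was 1.11 for δ-cells and between 0.967 and 0.984 for the other types, so that fold changes of δ-cells lie lower than the ratios of their CPM.

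Between β- and α-cells, 6 members were lower in β-cells, COX8A, COX7C, ATP5C1, ATP5B, ATP5I and NDUFA1, and 1 was higher, ATP5S. Of all 14648 genes tested, 18.1% were called lower and 7.54% higher, and the members' 6 and 1 of 60 were not above this background. The median log2 difference was -0.14 over the members, -0.20 over all genes and -0.046 over the 1595 genes above 100 CPM in α-cells.

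COX8A, a small subunit of complex IV that most tissues express, had between 697 and 1469 CPM in α-cells (median 1026) and between 535 and 968 in β-cells (median 714). The ranges overlapped, but β-cells were lower in each of the 16 monkeys (log2 difference -0.60 ± 0.099 (SE), adjusted p = 5e-06). COX7C had between 1225 and 1810 CPM in α-cells (median 1321) and between 828 and 1300 in β-cells (median 992), again lower in 16 of 16 monkeys (-0.48 ± 0.086, adjusted p = 1.92e-05). The 11 listed genes of complex IV summed to 5019 ± 534 CPM in α-cells and 4233 ± 476 in β-cells, lower in β-cells in 16 of 16 monkeys. Subunits not listed by symbol are missing from this sum, and it includes COX8A and COX7C. The means of COX6A1 (699 and 630 CPM) and COX6B1 (582 and 503) were also lower in β-cells. Those of COX7B (752 and 766) and COX7A1 (503 and 575) were not. The mitochondrially encoded core of complex IV went up in β-cells, with log2 differences of 0.79 ± 0.11 for COX1, 0.56 ± 0.068 for COX2 and 0.72 ± 0.066 for COX3 (higher in 16 of 16 monkeys each, adjusted p = 1.12e-07, 2.88e-09 and 1.19e-12).

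In the ATP synthase the catalytic head, F1, was uneven. ATP5C1, the γ subunit that forms the turning stalk, had between 362 and 635 CPM in α-cells (median 430) and between 250 and 399 in β-cells (median 345) and was lower in 16 of 16 monkeys (log2 difference -0.43 ± 0.13, adjusted p = 0.00864). ATP5B, the catalytic β subunit, had between 370 and 534 CPM in α-cells (median 447) and between 258 and 458 in β-cells (median 366), lower in 15 of 16 monkeys (-0.37 ± 0.13, adjusted p = 0.0259). ATP5A1, the α subunit that alternates with it in the head, had close means in both types, 591 ± 43.4 CPM in α-cells and 598 ± 53.2 in β-cells (-0.012 ± 0.10, adjusted p = 0.952). ATP5D, the δ subunit, gave -0.25 ± 0.15 (adjusted p = 0.235). ATP5I, the e subunit of the membrane part, had medians of 605 CPM in α-cells and 490 in β-cells (-0.33 ± 0.12, adjusted p = 0.0404), a call that was lost without any 1 of 13 of the 16 monkeys. The c-ring genes ATP5G2 (-0.047 ± 0.094, adjusted p = 0.769) and ATP5G3 (-0.27 ± 0.12, adjusted p = 0.0909) did not pass.

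ATP5S, which codes for coupling factor B, was the only member called higher in β-cells. It had between 3.30 and 18.1 CPM in α-cells (median 10.7) and between 11.3 and 46.5 in β-cells (median 23.3), and β-cells were higher in 15 of 16 monkeys (log2 difference 1.14 ± 0.30, adjusted p = 0.00349). At least 1 UMI of it was found in 32.9% of β-cells (exact 95% interval 30.3% to 35.6%) and 17.5% of α-cells (16.4% to 18.6%), and after thinning to 10000 UMIs in 15.99% of the 1213 β-cells and 6.09% of the 4464 α-cells deep enough. No islet cell type is known to lack it, so no background share can be set beside these, and the intervals cover counting error only. δ-cells had a mean of 25.6 ± 14.9 CPM (n = 11), near β-cells, and PP-cells 7.53 ± 5.71 (n = 6), near α-cells.

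**Figure D2:**
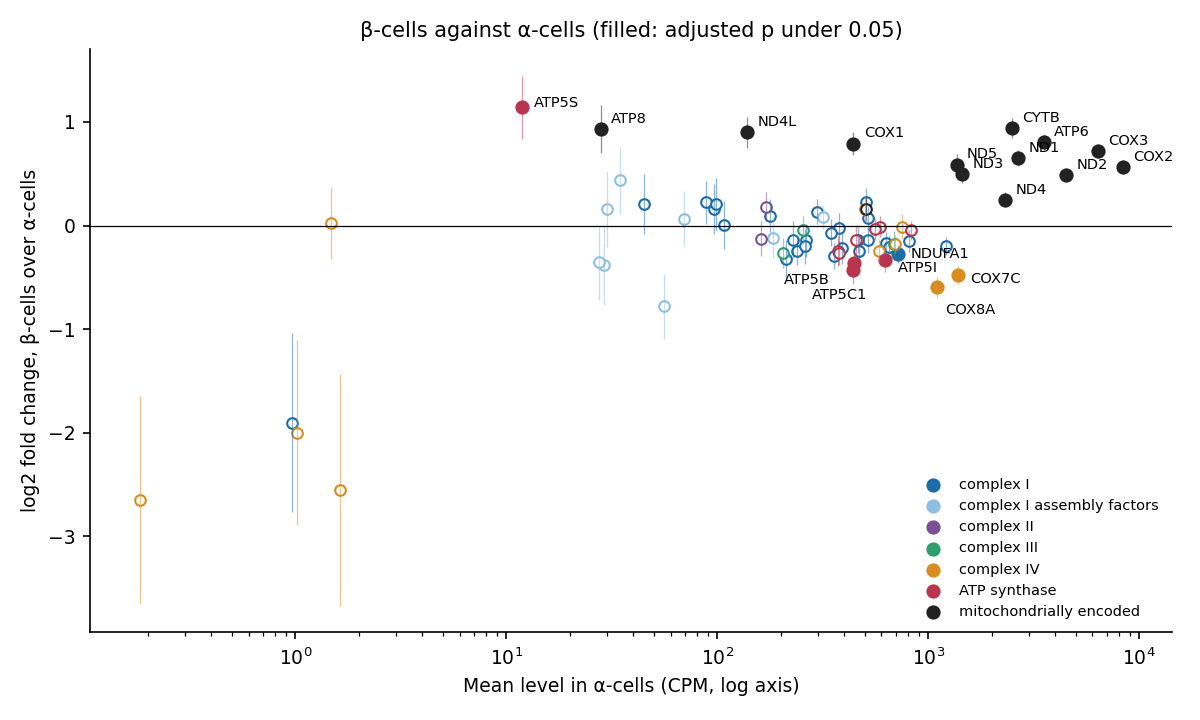
log2 fold change of β-cells over α-cells (bars, SE) against the mean level in α-cells (CPM, log axis) for the 60 members tested and the 13 mitochondrially encoded subunits. Filled points passed an adjusted p of 0.05. The filled mitochondrially encoded genes lie above 0, and among the filled members only ATP5S does.

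In complex I only NDUFA1, a small membrane subunit, was called lower in β-cells, with 719 ± 78.6 CPM in α-cells and 612 ± 98.6 in β-cells (log2 difference -0.28 ± 0.089, adjusted p = 0.0154, lower in 16 of 16 monkeys). None of the 5 core subunits in the files passed. NDUFS1 (0.21 ± 0.29), NDUFS8 (0.13 ± 0.12) and NDUFV1 (0.16 ± 0.24) had positive values, and NDUFS3 (-0.32 ± 0.18) and NDUFS7 (-0.24 ± 0.13) negative ones. NDUFV1 binds the flavin that takes electrons from NADH, and NDUFS1, NDUFS7 and NDUFS8 carry iron-sulphur clusters that pass them on. The sum of the 27 listed complex I genes gave -5.25% ± 8.50 in β-cells, within the spread between monkeys and lower in only 9 of 16. Of complex II, SDHB, the iron-sulphur subunit, gave -0.13 ± 0.17 and SDHD, a membrane anchor, 0.18 ± 0.14. No member of complex III and no assembly factor of complex I was called.

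All 13 mitochondrially encoded genes had positive differences between β- and α-cells and 12 passed the test. CYTB, the core of complex III, had between 1131 and 6221 CPM in α-cells (median 2097) and between 2571 and 9872 in β-cells (median 4379), with a log2 difference of 0.94 ± 0.093 (adjusted p = 1.48e-11). The 12 called differences lay between 0.25 (ND4) and 0.94 (CYTB). The exception was ND6, with 508 ± 179 CPM in α-cells and 583 ± 214 in β-cells (0.16 ± 0.12, adjusted p = 0.366). ND6 is the protein-coding gene on the light strand of mitochondrial DNA, the others lying on the heavy strand. ATP8 overlaps ATP6 and ND4L overlaps ND4, and how reads in the overlaps were counted is not given in the sources used here.

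The calls depended unequally on scaling. COX8A and ATP5S, and the same 12 mitochondrially encoded genes, were called in the same direction with TMM, with DESeq2, with sums scaled to all UMIs outside the 4 hormones, and with sums scaled to spike-ins. Scaling to spike-ins moved the median of all genes between β- and α-cells to 0.024 and that of the members to 0.086, and then 5 members were called higher and 1 lower, beside 11.7% and 13.3% of all genes.

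**Figure D3:**
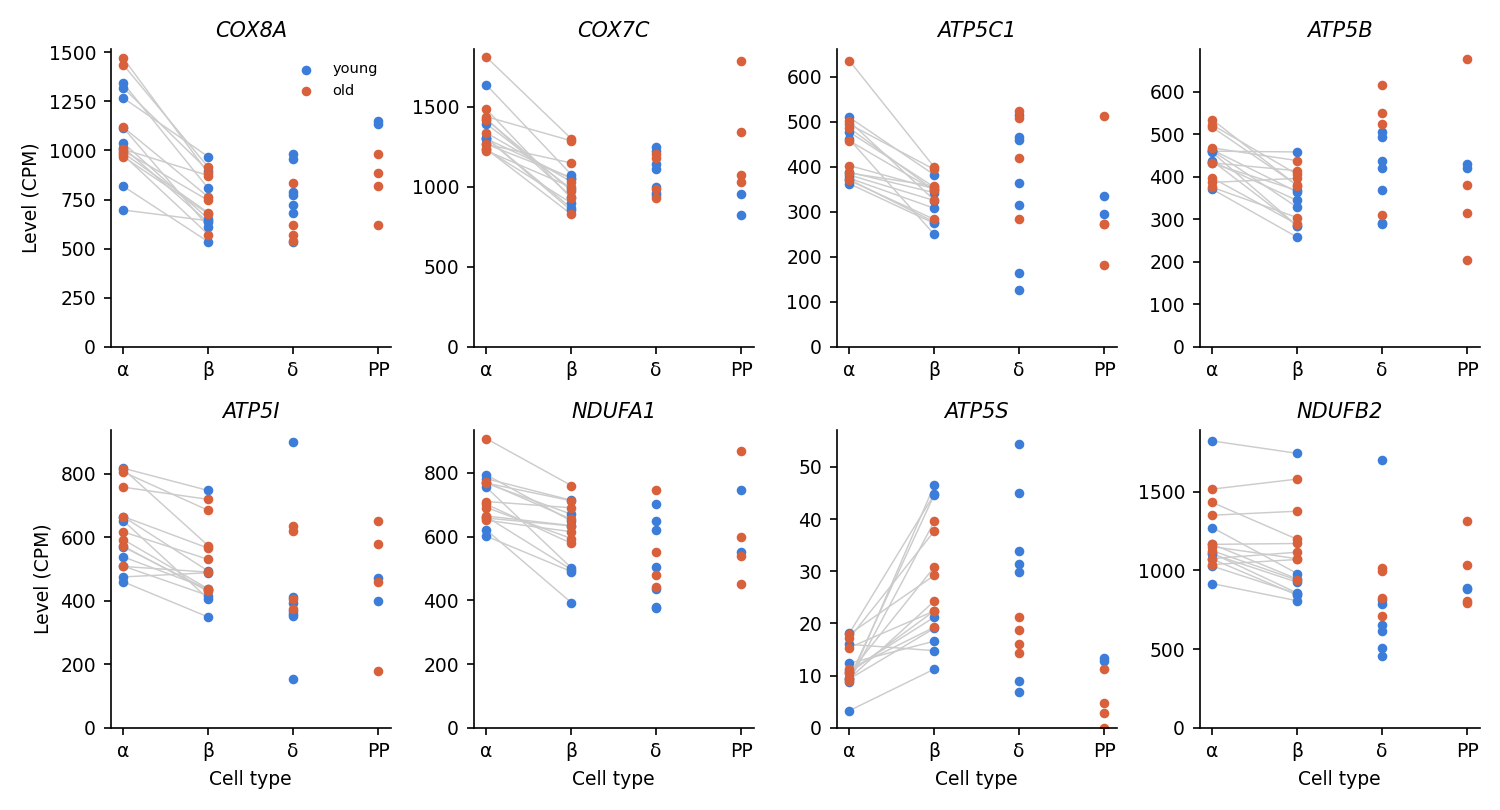
Level (CPM) of 8 members in the 4 cell types, 1 point per monkey, with grey lines joining the α- and β-cells of a monkey. COX8A and COX7C fall from α to β in every monkey, ATP5S rises in 15 of 16, and NDUFB2 is lowest in δ-cells.

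δ-cells had lower levels of members than α-cells for more genes. Of 60 members tested, 24 were called lower and none higher, against 19.0% of all genes called lower and 3.82% higher. Among the genes above 100 CPM in α-cells 33.9% were lower, nearer to the 40% of the members, and the member median of -0.39 lay above the median of all genes (-0.57) and near that of genes above 100 CPM (-0.32). With DESeq2, which moved the median of all genes to -0.10, 12 members were called lower and 3 higher, beside 12.5% and 7.64% of all genes. With spike-ins 45 were lower and 0 higher, beside 39.0% and 2.73% of all genes and 70.5% lower among the genes above 100 CPM. The 12 members lower under all 4 scalings were ATP5D, ATP5G3, ATP5I, ATP5O, COX6A1, COX7A1, COX7C, COX8A, NDUFA1, NDUFA5, NDUFB2 and NDUFB4.

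NDUFB2 had between 915 and 1821 CPM in α-cells (median 1137) and between 456 and 1703 in δ-cells (median 786). It was lower in δ-cells in 11 of 11 monkeys, with a log2 difference of -0.81 ± 0.10 (adjusted p = 2.09e-08). The highest δ-cell value was that of young male 3, whose NDUFB2 was also the highest in α-cells (1821 CPM) and β-cells (1743). ATP5D had a median of 360 CPM in α-cells and 242 in δ-cells (-0.90 ± 0.18, adjusted p = 0.000184, lower in 9 of 11 monkeys), and ATP5O, the subunit that joins the stalk to the head, 444 and 287 CPM (-0.85 ± 0.18, adjusted p = 0.000324, lower in 8 of 11). NDUFA5, a subunit of the arm that holds the NADH site, had medians of 180 and 145 CPM (-0.78 ± 0.19, adjusted p = 0.00280). NDUFAF4, an assembly factor, had 71.6 and 25.1 CPM (-0.94 ± 0.34, adjusted p = 0.0405), but was lower in only 7 of 11 monkeys and was not called with DESeq2. The core subunits of complex I and both genes of complex II did not pass, with log2 differences between -0.39 (SDHD) and 0.11 (NDUFV1). ATP5A1 did not pass either, with 598 ± 130 CPM in δ-cells (-0.17 ± 0.12, adjusted p = 0.306).

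Of the mitochondrially encoded genes, COX1, COX3, ATP6 and CYTB were called higher in δ- than in α-cells (log2 differences between 0.28 and 0.41) and none lower. With DESeq2 9 were higher and with sums scaled to UMIs without the hormones 8. With no filter on low counts 5 were higher and with strict typing 4, and none was lower in any of these. Leaving out 1 monkey in turn gave 3 to 4 higher and none lower. With thinned cells none was called higher and 1 lower, and without the monkey as a block 1 was higher. With spike-ins 7 were lower and none higher. The direction of these genes thus turned with spike-ins, and the calls were not kept with thinned cells. Neither the block nor the scaling can move their ratio to the nuclear-coded members, and it was not computed on thinned cells. With strict typing the ratio was higher in δ- than in α-cells in 6 of 6 monkeys (by 68.5% ± 33.6). Against β-cells, δ-cells had 14 members lower and 1 higher, beside 13.1% and 4.96% of all genes. Of these, ATP5O, COX7A1, NDUFA5 and NDUFB2 were lower under all 4 scalings. The higher one was COX6B2, and it rested on 28 UMIs in 1 δ-cell. Of the mitochondrially encoded genes, 11 were lower in δ- than in β-cells, 4 of them (CYTB, ND1, ND2 and ND4L) under all 4 scalings.

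PP-cells were few and only 5 members differed from α-cells, all lower, beside 4.84% of all genes called lower and 1.48% higher. SDHD, the membrane anchor of succinate dehydrogenase, had between 43.0 and 169 CPM in PP-cells (median 75.3, n = 6) and between 126 and 266 in α-cells (median 164). It was lower in 6 of 6 monkeys (log2 difference -0.92 ± 0.23, adjusted p = 0.00894) and under all 4 scalings. NDUFB9 had medians of 41.9 and 88.8 CPM (-1.15 ± 0.35, adjusted p = 0.0366), NDUFS7, which holds the last iron-sulphur cluster before ubiquinone, 333 and 464 CPM (-0.63 ± 0.20, adjusted p = 0.0479), COX6A1, the ubiquitous isoform of subunit 6A, 489 and 673 CPM (-0.55 ± 0.14, adjusted p = 0.0109), and ATP5I 465 and 605 CPM (-0.60 ± 0.19, adjusted p = 0.0424). NDUFB9, NDUFS7, COX6A1 and ATP5I were not called under at least 1 other scaling, and leaving out 1 monkey in turn lost the call of NDUFS7 in 13, of ATP5I in 11, of NDUFB9 in 9 and of COX6A1 in 1 of 16 cases. ND4 and ND6 were the mitochondrially encoded genes called higher in PP- than in α-cells. With DESeq2 7 were higher and with sums scaled to UMIs without the hormones 4, and none was lower in either. With no filter on low counts or without possible doublets 2 were higher, and leaving out 1 monkey in turn gave 0 to 3. None was higher with thinned cells (2 lower), without the monkey as a block, with strict typing or with spike-ins (3 lower). SDHB, the partner of SDHD, did not pass, with 190 ± 104 CPM in PP-cells and 162 ± 15.1 in α-cells (0.20 ± 0.25, adjusted p = 0.670).

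Against β-cells, PP-cells had 5 members lower, SDHD, NDUFB9, NDUFS1, NDUFS8 and ATP5S, all 5 under all 4 scalings, beside 9.57% of all genes called lower and 6.08% higher. SDHD gave a log2 difference of -1.11 ± 0.23 (adjusted p = 0.000538). The 2 members called higher were COX4I2, from 50 UMIs in 1 PP-cell, and COX6B2, from 3 UMIs in 1 PP-cell. Comparisons with α-cells and with β-cells share the same PP-cells.

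**Figure D4:**
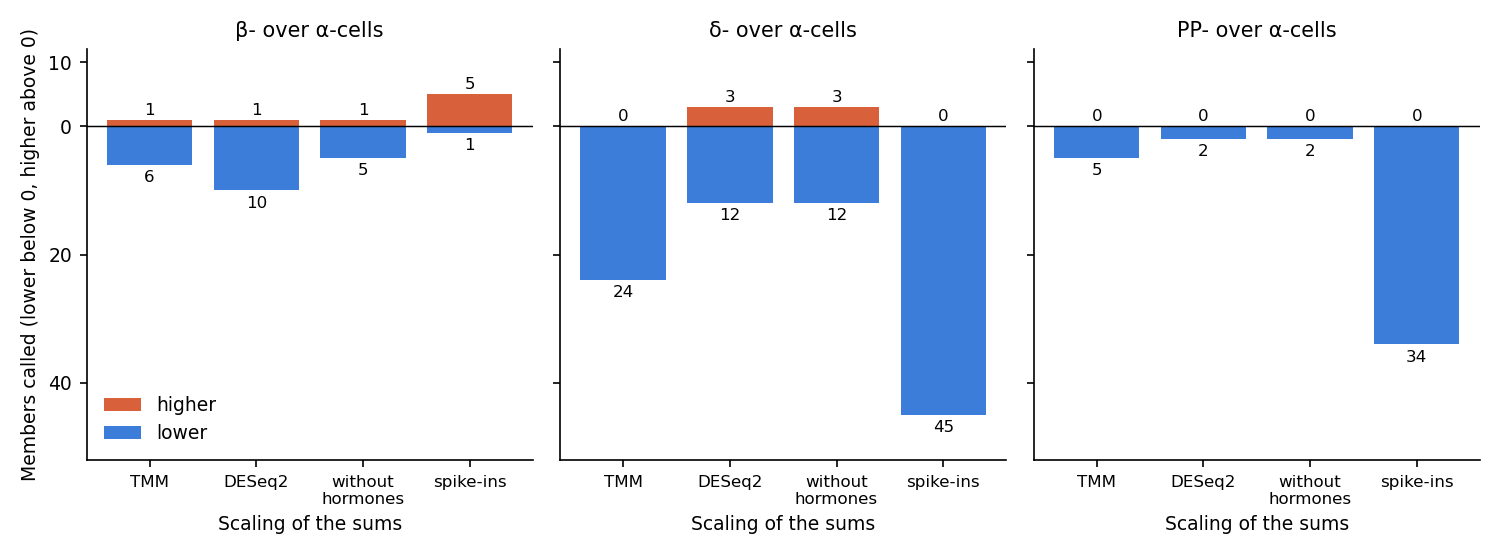
Number of members called higher (above 0) or lower (below 0) than in α-cells under TMM, DESeq2 with its own size factors, scaling to UMIs outside the 4 hormones, and scaling to spike-ins. In δ-cells between 12 and 45 members are lower, beside 12.2% to 39.0% of all genes. In β-cells between 1 and 10 are lower, beside 13.3% to 18.1% of all genes.

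Isoforms that replace a ubiquitous subunit in particular tissues were sparse, with 1 exception. COX7A1, known as the heart and muscle isoform of subunit 7A, had 503 ± 112 CPM in α-cells, 575 ± 125 in β-cells, 373 ± 192 in δ-cells and 449 ± 120 in PP-cells, below the 582 to 752 CPM of the ubiquitous COX6A1, COX6B1 and COX7B in α-cells but far above the other tissue isoforms. Its paralogue COX7A2 is not listed by symbol, and whether its reads were counted as COX7A1 was not tested. COX6A1 had 699 ± 114 CPM in α-cells against 1.62 ± 2.63 for its muscle isoform COX6A2, and COX6B1 582 ± 98.7 CPM against 0.18 ± 0.366 for its testis isoform COX6B2. COX6B1 and COX7B did not pass between β- and α-cells (-0.24 ± 0.11 and -0.011 ± 0.12).

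The remaining isoforms were each found in few cells. COX4I2, the hypoxia-responsive isoform of subunit 4, had 438 UMIs in 67 of 5908 cells, and 173 of these UMIs lay in 7 of the 34 cells with over 500 CPM of stellate markers. NDUFA4L2, a paralogue of NDUFA4 induced by hypoxia, was found in 61 cells of 14 monkeys, and 237 of its UMIs (50.9%) lay in 11 of the same 34 cells. Of those 34 cells 20.6% held COX4I2 and 32.4% NDUFA4L2, against 1.02% and 0.851% of all others, and no stellate marker was used in typing. COX7B2, a testis isoform, had 519 UMIs in 83 cells, of which 517 came from young males 1, 2 and 3 (227, 120 and 170 UMIs). COX8C had 242 UMIs in 47 cells, 201 of them in young male 3. COX6A2 had 644 UMIs in 105 cells of 11 monkeys. These counts were too concentrated for a comparison of types.

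Between old and young monkeys no member was called in any cell type by edgeR with sex in the model, nor by DESeq2. In β-cells 55 members were tested and 0 had an unadjusted p under 0.05 (1 with DESeq2), beside 0.045% of all genes called. In α-cells 57 were tested, 0 with an unadjusted p under 0.05 (0 with DESeq2), beside 0.0% of all genes. In δ-cells 2 of 55 members had an unadjusted p under 0.05 (2 with DESeq2), beside 0.0% of all genes called, and in PP-cells 1 of 53 (3 with DESeq2), beside 0.0%. The members left out by the filter were COX8C and up to 7 other low members.

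The sum of all members was 21832 ± 1368 CPM in young and 22225 ± 2042 in old α-cells, and 19601 ± 2032 in young and 20853 ± 1922 in old β-cells (n = 8 each). The old values were 1.80% and 6.39% higher, within the spread between monkeys. Log2 differences of members lay between -0.33 (ATP5G2) and 0.41 (NDUFAF2) in β-cells with a median of 0.10, 42 of 55 being positive, and the median of all genes was 0.012. Leaving out 1 monkey in turn, the member median lay between 0.020 (without old male 2) and 0.15 (without old male 4). The smallest p in β-cells was that of NDUFB5 (0.31 ± 0.15, adjusted p = 0.904). In α-cells the log2 differences lay between -0.33 (NDUFAF5) and 0.64 (NDUFA4L2), with a median of 0.029 over the members. COX8A, called between types, gave 0.10 ± 0.16 in β-cells and 0.054 ± 0.16 in α-cells, and COX7C 0.14 ± 0.14 and 0.041 ± 0.11.

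Scaled to spike-ins, the median age difference in β-cells was 0.43 over the members and 0.31 over all genes, with 22 members at an unadjusted p under 0.05 and none called. Old β-cells held 22.4 ± 4.22 UMIs per spike-in UMI and young ones 18.04 ± 2.75 (n = 8 each), while α-cells held 17.3 ± 3.20 and 17.5 ± 1.45. The mitochondrially encoded sum was 54241 ± 12970 CPM in young and 54567 ± 14787 in old β-cells, and by TMM and edgeR none of its genes was called in any type. In PP-cells the sum was 23770 and 28947 CPM in the 2 young monkeys and between 36199 and 49966 in the 4 old ones, which did not overlap (26358 ± 3660 and 42630 ± 5861 CPM, 61.7% higher in old). Of its genes ND3 gave 2.59 ± 0.58 (adjusted p = 0.122), COX3 1.31 ± 0.39 (adjusted p = 0.585) and COX2 1.25 ± 0.70 (adjusted p = 0.847). Some alternatives called genes of this set higher in old PP-cells, 2 with no filter on low counts, 2 with the replicate number as a block, 3 without old female 1, 2 without old female 2 and 1 without old male 2. DESeq2, scaling to spike-ins or to UMIs without the hormones, thinned cells, leaving out possible doublets and the fit without old male 4 called 0. Fits without either young monkey left 1 young monkey, so their calls are not counted here. Both young monkeys were males (young males 1 and 4), and the old ones were 2 females and 2 males. The CPM sums of PP-cells thus mix age with sex. One of the 2 young monkeys was young male 1, whose COX2, COX3 and ND3 were low in α-cells too. Without it 1 young monkey is left, whose sum also lay below those of the 4 old ones. With 1 young monkey there is no spread, so the part of young male 1 in the difference cannot be told.

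**Figure D5:**
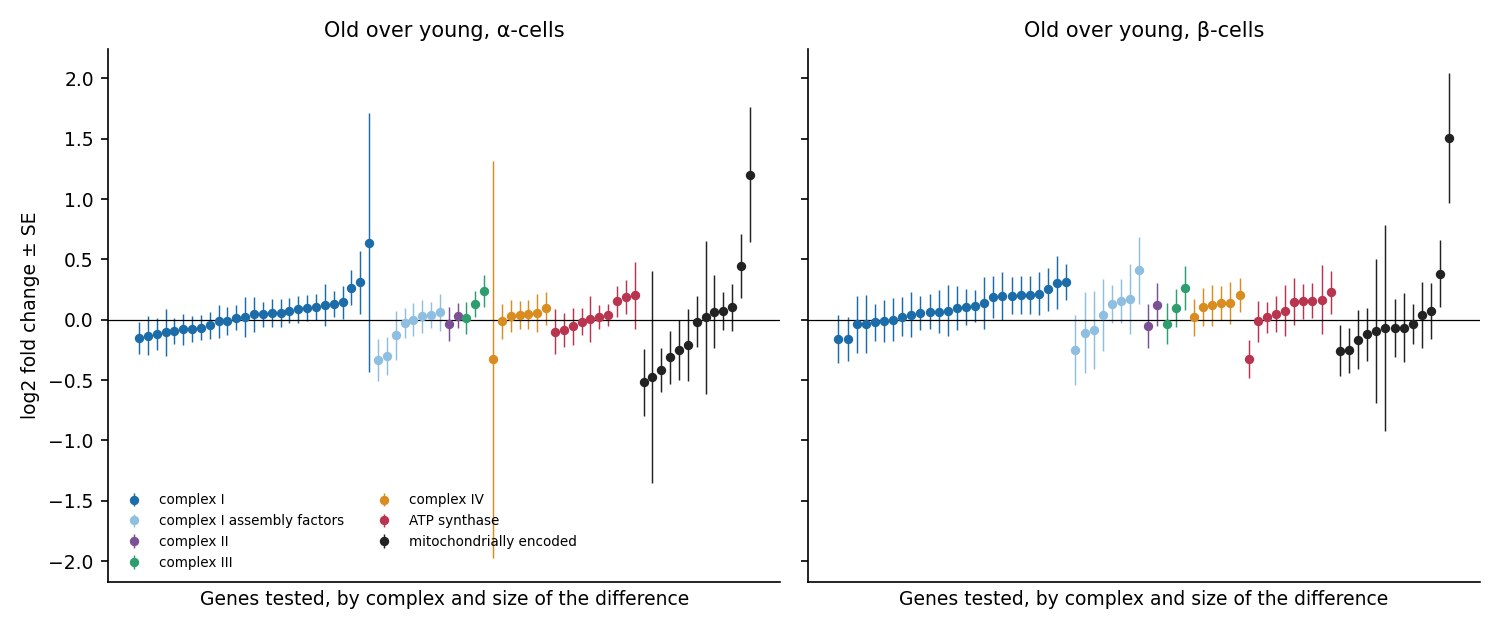
log2 fold change of old over young monkeys (bars, SE) for the members and the mitochondrially encoded subunits in α-cells (left) and β-cells (right), ordered within each complex by size. None passed an adjusted p of 0.05, and in β-cells 42 of 55 members lie above 0. The member median in β-cells is 0.10, and 0.020 without old male 2.

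The age difference itself was compared between β- and α-cells, and between males and females, by interaction terms. No member was called by edgeR or DESeq2. Of 61 members tested for type by age, 2 had an unadjusted p under 0.05 (3 with DESeq2), NDUFA11 (0.32 ± 0.12 more positive in β-cells, adjusted p = 0.743) and NDUFB2 (0.23 ± 0.11, adjusted p = 0.824), beside 0.0% of all genes called. For sex by age 1 of 55 had such a p in β-cells (2 with DESeq2) and 2 of 58 in α-cells (3 with DESeq2), beside 0.0% and 0.00707% of all genes called.

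Genes of the pathway outside the rule were counted from lists, to be read beside the 7.54% of all genes called higher and the 18.1% called lower in β-cells. Of 8 other parts of the chain, 1 was higher in β- than in α-cells and 1 lower. The higher one was C15orf48, a relative of NDUFA4 that can take its place in complex IV, with 129 ± 47.2 CPM in α-cells and 466.3 ± 179 in β-cells (log2 difference 1.83 ± 0.17, adjusted p = 3.26e-12), and the lower one CYC1, cytochrome c1 of complex III, with 329 ± 30.3 and 248 ± 33.3 CPM (-0.43 ± 0.13, adjusted p = 0.0099). C15orf48 was also higher in δ-cells than in α-cells (1.72 ± 0.19, adjusted p = 1.1e-09). Of 33 assembly factors tested, 3 were higher in β-cells, the complex IV factors COX15, COX16 and COX20, a share near that of all genes called higher. None was lower, beside the 18.1% of all genes called lower. Of 18 regulators of mitochondrial biogenesis, none was higher in β-cells and 4 were lower, the latter near the share of all genes called lower. The 4 lower ones were PPARGC1A, the coactivator PGC-1α (16.4 ± 13 CPM in α-cells and 0.945 ± 0.713 in β-cells, -4.13 ± 0.53, adjusted p = 1.45e-08), its relative PPARGC1B, the nuclear receptor ESRRA that it activates, and PPARD. Of 7 carriers and porins, 1 was lower, SLC25A5, an ADP/ATP exchanger (-0.62 ± 0.14, adjusted p = 0.000406). These genes were named after their values were seen. With age no gene of these lists was called in α- or β-cells.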

How the data were processed

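Single-cell mRNA of 64 libraries from 16 monkeys was measured. The authors demultiplexed reads (CASAVA 1.8), aligned them with TopHat2 2.0.12 (versions from the submitters' processing notes) to the cynomolgus assembly and counted uniquely mapped reads per gene with HTSeq, each UMI once. The deposited values are raw UMI counts, used without normalization by the authors. A separate barcode list was not used.

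From these counts, 5908 of 6141 barcodes with over 800 genes and over 10000 UMIs were kept. Spike-ins (95 RNAs, 5.41% of UMIs) stayed out of library sizes. Counts were summed per monkey and type (at least 5 cells) and tested in edgeR 4.0.16 (filterByExpr, TMM, quasi-likelihood, Benjamini-Hochberg over all genes tested, threshold 0.05), with the monkey as block between types and sex as covariate for age. R 4.3.3 also ran limma 3.58.1 and DESeq2 1.42.0. Tables were made with pandas 2.3.3, scipy 1.17.1 and numpy 2.4.6 in Python 3.11.15, and plots with matplotlib 3.10.9. The scripts were tested on simulated data. Doublets were not called. Instead, an alternative left out cells above the 95th percentile of UMIs. Members sharing reads with pseudogenes or paralogues are uncertain. For cell types and type by age, p-values measure how the difference between types varies from monkey to monkey. For age and sex by age they measure the spread between monkeys. Intervals cover counting error only.

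Members and lists were chosen with earlier results of these data known. Values are given for up to 5 members with the largest rise and fall among those called and at 10 CPM or more in each main comparison, for core subunits of complex I, complex II, F1, c-ring and tissue isoforms, and for the 5 most abundant members. Others are given by counts and ranges. Same-numbered young and old monkeys did not deviate together (correlations between -0.0484 and 0.151 in α-cells and between -0.1 and 0.0596 in β-cells), so the numbers do not pair them. Alternatives changed the scaling, filter, thinning, typing, block and monkeys.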

Additional observations from a re-analysis of the deposited data

Results flagged for a closer look

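Within groups of 4 to 10 monkeys of 1 age, 15 of 171 groups with a mean of at least 10 CPM held a value far from the others of its group, where chance marks about 1 in 20. Of these values 9 came from young male 3. In its α-cells complex II summed to 435.8 CPM (others 279.6 to 340.6), SDHD to 265.9 (126.0 to 178.2) and NDUFB2 to 1821 (915 to 1271), while ATP5B with 370.4 (430.9 to 463.0), ATP5G2 with 582.9 (828.6 to 935.2) and ATP5G3 with 270.0 (377.1 to 438.5) were low. In its β-cells NDUFB2 had 1743 CPM (807 to 979) and ATP5I 747.8 (349.0 to 493.8), and in its δ-cells complex III summed to 1875 (697 to 1196).

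Old male 2 held 4. COX7C had 1810 CPM (others 1225 to 1483) and NDUFS7 600.8 (435.1 to 495.6) in its α-cells, and the ATP synthase summed to 4943 (3889 to 4374) and NDUFS8 to 433.1 (289.6 to 357.2) in its β-cells. The remaining ones were NDUFS7 in the β-cells of old male 4, with 191.3 CPM (371.6 to 457.5), and SDHB in the β-cells of young female 2, with 237.9 (107.4 to 166.9). The cause of these values was not tested.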

How the results depend on the processing

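Counts of members are given as higher and lower. With DESeq2 they were 1 and 10 for β- against α-cells, 3 and 12 for δ- against α-cells, 0 and 2 for PP- against α-cells, 3 and 4 for δ- against β-cells and 4 and 5 for PP- against β-cells. Of all genes 9.13% and 17.8%, 7.64% and 12.5%, 4.03% and 5.24%, 9.73% and 9.84%, and 10.8% and 9.04% were called. Scaled to spike-ins the counts of members were 5 and 1, 0 and 45, 0 and 34, 1 and 49, and 2 and 44 in that order. All 14648 genes moved as well, with 13.3%, 39.0%, 15.8%, 39.9% and 25.8% lower (12.5%, 70.5%, 40.8%, 77.1% and 59.6% of genes above 100 CPM). Scaled to UMIs without the hormones the counts of members were 3 and 12 for δ- against α-cells, 0 and 2 for PP- against α-cells and 2 and 4 for δ- against β-cells. Of all genes 5.16% and 12.2%, 1.66% and 3.86%, and 6.25% and 8.64% were called. With strict typing (own hormone at least 3 times the next) the members gave 1 and 12, 0 and 1, 0 and 5, and 0 and 1 for the 4 comparisons of δ- and PP-cells. All genes gave 330 and 1999, 10 and 13, 431 and 1122, and 165 and 71. With thinned cells PP- against α-cells gave 0 and 13 members, δ- against β-cells 0 and 18 and PP- against β-cells 0 and 11. The counts over all genes were 186 and 602, 653 and 1616, and 641 and 1231. With no filter on low counts PP- against α-cells gave 0 and 2 members (208 and 551 of all genes) and PP- against β-cells 1 and 5 (837 and 1179). Without possible doublets δ- against α-cells gave 1 and 19 members (536 and 2639 of all genes) and PP- against α-cells 0 and 2 (213 and 520). Per spike-in UMI the sum was 7.74% ± 24.1 higher in β- than in α-cells, a mean within the spread between monkeys (higher in 9 of 16). It differed by -42.3% in δ-cells, -32.8% in PP-cells and 33.6% between old and young β-cells. Strict typing left 1 monkey for PP-cells (-23.8%), and their age comparison could not be fitted. The cause of these changes was not tested.

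Without the monkey as a block the counts of members were 1 and 3 for β- against α-cells, 1 and 14 for δ- against α-cells, 1 and 2 for PP- against α-cells, 0 and 8 for δ- against β-cells and 1 and 6 for PP- against β-cells. The counts over all genes were 1190 and 1627, 1121 and 1729, 612 and 650, 1211 and 1634, and 1567 and 1536. With the replicate number as a block, age gave 0 and 0 members in each type. All genes gave 4 and 1 in β-cells, 0 and 0 in α-cells, 1 and 2 in δ-cells and 3 and 0 in PP-cells. Same-numbered monkeys correlated best with each other in 3 of 8 pairs in α-cells and 1 of 8 in β-cells.

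Leaving out 1 monkey in turn gave 1 higher and between 3 (without young male 2) and 9 lower in β- against α-cells, 0 to 1 and 16 to 25 in δ- against α-cells, 0 and 1 (without old male 2) to 6 in PP- against α-cells, 0 to 1 and 12 to 15 in δ- against β-cells, and 1 to 2 and 3 (without old male 2) to 9 (without old female 1) in PP- against β-cells. Over all genes the lower counts ranged from 2272 to 2606, 2362 to 2704, 383 to 771, 1644 to 1872 and 1038 to 1456 in that order. Age and interaction counts of members stayed at 0. The sums ranged from -8.68% to -7.15% (β), -14.2% to -12.1% (δ), -19.4% to -16.4% (PP), -0.805% to 2.93% (age, α) and 3.60% to 9.15% (age, β). The ratio of mitochondrially encoded to nuclear-coded UMIs ranged from 69.6% to 77.1% higher in β-cells. Low cell numbers of δ- and PP-cells limit their comparisons. The alternative for the 2 monkeys with low COX2 and the ratio were chosen after seeing the data.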
